A study of Mus musculus with 2 samples.

Results

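The autophagy machinery genes are 43 mouse genes that start, build, fill and close the autophagosome, chosen by name and grouped here by the step at which their products act. They were looked up by gene identifier in the deposited gene tables, and all 43 were found among 43346 genes, of which 21474 are protein-coding. The material was 2 pools of 30 Purkinje cells each, the large inhibitory neurons that carry the only output of the cerebellar cortex, cut from tissue by laser. The pools form 1 group with no treatment: both came from adult male B6CASTF1/J mice aged 14 months, which are first-generation hybrids of the C57BL/6 and CAST strains. Although the assay is titled as single-cell sequencing, each library holds the pooled RNA of 30 cells. The labels call the pools biological replicates 1 and 2 and give the same donor identifier for both, so the SD between them (n = 2 throughout) covers the difference of these pools alone and could be technical. Total RNA longer than 200 nt, with spike-in RNA added, was turned into libraries with the SMARTer Ultra Low kit.

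Autophagy is the route by which a cell wraps part of its own cytoplasm in a double membrane and delivers it to the lysosome. A kinase complex (initiation) switches on a lipid kinase complex (nucleation), lipid transfer and scramblase proteins feed the growing membrane, and conjugation enzymes attach small ubiquitin-like ATG8 proteins (the LC3 and GABARAP families) to its lipids. Receptors then link cargo to the ATG8 proteins, and dedicated mitochondrial proteins mark mitochondria for removal, which is called mitophagy. Neurons do not divide and so cannot dilute damaged material, and mice whose Purkinje cells lack core autophagy genes are known to lose those cells.

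Levels are given as TPM, the share of all transcript molecules in the library after scaling to a fixed total, a measure corrected for transcript length that can be set side by side between genes. Tests between the libraries used expected counts, which are estimated reads. The libraries held 31503819 (pool 1) and 28709397 (pool 2) expected counts, and the counts behind the levels of low genes are given beside them. Each of the 10 Purkinje cell markers reached a TPM of 1 in both pools, with summed TPM of 94639 and 94002. Gng13, a G protein subunit, had 37575 and 39449, and Pcp4, a calmodulin-binding peptide, had 26704 and 24370. Of 11 Bergmann glia and astrocyte markers 10 were also detected, with summed TPM of 2454 in pool 1 and 4359 in pool 2, led by the glutamate transporter Slc1a3 (1310 and 2298) and the gap junction gene Gja1 (401 and 842). Gfap, the intermediate filament of astrocytes, was at 0.50 and 0.47. Red blood cell markers (4 of 5 detected in both pools) summed to 2453 in pool 1 and 16.3 in pool 2, led by the globins Hbb-bs (936 and 6.35) and Hba-a1 (776 and 4.69). Granule cell markers (5 of 7) summed to 37.6 and 43.7, led by Zic1 (9.13 and 11.8) and Neurod1 (7.39 and 10.9). Oligodendrocyte markers (3 of 7) summed to 37.3 and 53.9, led by Cnp (20.3 and 32.8) and Mbp (7.32 and 10.9). Endothelial and mural markers (2 of 6) summed to 19.1 and 13.8, led by Ly6c1 (14.8 and 10.9) and Vtn (3.77 and 1.56). Microglial markers (1 of 6) summed to 4.01 and 3.26, led by Tyrobp (2.22 and 1.11) and P2ry12 (0.58 and 1.15), with Aif1 at 0 in pool 2. Their part in the levels below was not tested. In such bulk libraries, fewer cells of a type and less RNA per cell cannot be told apart.

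Transcripts of most of the machinery were present. Of the 43 genes, 30 were detected in both pools (a gene counts as detected from a TPM of 1 upwards), against 30.3% of all protein-coding genes (6506 of 21474). A further 5 were detected in 1 pool, and 8 were under 1 in both. The median of log2(TPM + 1) over the members was 1.97 ± 0.06 (SD, n = 2), against 0.27 ± 0.03 over all protein-coding genes. Levels were very uneven between the steps. The 5 ATG8 genes held 72.4% of the members' summed TPM in pool 1 and 70.1% in pool 2, whereas the 10 conjugation genes held 1.51% and 1.55% and the 6 nucleation genes 0.885% and 0.893%. The 13 members that reached a TPM of 10 in both pools were ATG8 genes, receptors, mitophagy genes, the small GTPase Rab7 or the lipid transfer gene Atg2a.

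**Figure D1:**
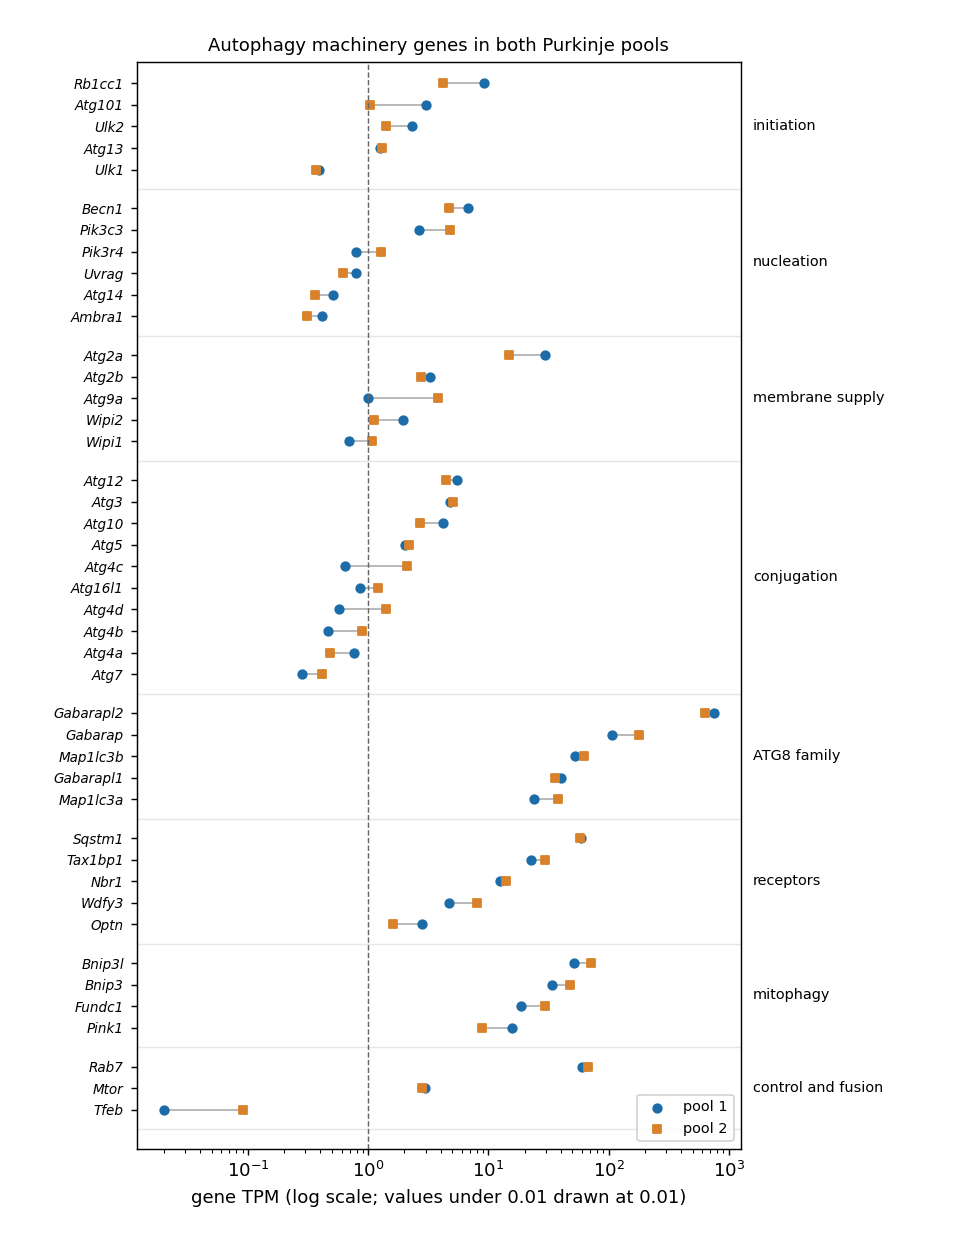
Gene TPM of the 43 autophagy machinery genes on a log axis, grouped by step, with a circle for pool 1, a square for pool 2 and a line joining them; the dashed line marks a TPM of 1. The 5 ATG8 genes lie between 24 and 745, and 8 genes, among them Ulk1, Atg7 and Tfeb, lie left of the dashed line in both pools.

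The ATG8 genes had the highest summed TPM of any step. The precursors of their proteins are cut by ATG4 proteases just after a glycine near the carboxyl end, and that glycine is then joined to the membrane lipid. The last 60 coding bases of each, stop codon included, are shown because the end of the reading frame sets whether a transcript encodes this site; the glycine codon is in capitals. They are from GENCODE M21 transcripts on mouse build mm10 (GRCm38), all on the plus strand, each inside a coding exon.
Map1lc3a-201 (chr2:155277578-155277637): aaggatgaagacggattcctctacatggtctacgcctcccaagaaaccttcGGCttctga
Map1lc3b-201 (chr8:121596711-121596770): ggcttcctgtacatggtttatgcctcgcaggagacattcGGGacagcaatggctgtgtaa
Gabarap-201 (chr11:69994465-69994524): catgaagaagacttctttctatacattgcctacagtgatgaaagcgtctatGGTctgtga
Gabarapl1-201 (chr6:129541108-129541167): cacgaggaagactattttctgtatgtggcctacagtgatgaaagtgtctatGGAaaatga
Gabarapl2-201 (chr8:111952346-111952405): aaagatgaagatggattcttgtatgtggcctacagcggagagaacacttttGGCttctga
The other annotated coding form, Gabarap-202 (chr11:69994526-69994585), ends downstream in another sequence, and no codon is marked in it.
Gabarap-202: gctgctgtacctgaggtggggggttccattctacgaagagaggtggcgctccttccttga
In the 5 principal forms the marked glycine was residue 120 of 121 (Map1lc3a), 120 of 125 (Map1lc3b) and 116 of 117 (Gabarap, Gabarapl1 and Gabarapl2), so 5 residues follow it in Map1lc3b and 1 in each of the others. Gabarap and Gabarapl1 were the closest pair, with 86.3% identical residues and 74.9% identical coding bases. Map1lc3a and Map1lc3b shared 81.8% of residues, and Gabarapl2 shared 57.3% with Gabarap and 60.7% with Gabarapl1. No pair of these genes met the threshold for a near copy (at least 95% identity over 200 bases). Gabarapl2 does have processed pseudogenes that met it. Gm3724 (99.4% over 349 bases) and Gm6051 (98% over 352 bases) were not among the quantified genes. Gm5829 (96.6% over 351 bases) had 3.2 and 1.2 counts.

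Gabarapl2, which acts in the closure of autophagosomes and in Golgi traffic (chromosome 8, 111940703 to 111953612), was the highest member, at 745 TPM in pool 1 and 630.0 in pool 2 (mean 687 ± 81.2, SD, n = 2). Gabarap, the founding member of its subfamily (chromosome 11, 69991143 to 69994951), had 106 and 177. Map1lc3b, the LC3 protein used most as a marker of autophagosomes, had 52.8 and 62.6. Gabarapl1 had 40.5 and 35.6, and Map1lc3a, the other LC3 gene on the list, had 24 and 37.8. Gabarapl2 lay apart from Gabarap in both pools, and Gabarap from all the rest, while Gabarapl1 and Map1lc3a overlapped. Of the family's summed TPM, Gabarapl2 held 71.8% ± 7.16 (SD, n = 2), Gabarap 14.9% ± 5.53, Map1lc3b 6.04% ± 0.835, Gabarapl1 3.98% ± 0.285 and Map1lc3a 3.24% ± 1.08.

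Much of this TPM lay on transcripts that the annotation does not class as protein-coding. Gabarapl2-203, a retained-intron transcript of 749 bases, held 67.5% of the gene's TPM, and the coding transcript, Gabarapl2-201, had 242 and 204. By expected counts the coding share of Gabarapl2 was 53.9% and 53.8%, since TPM divides by length and so gives a short transcript more weight per read. Map1lc3a went further: Map1lc3a-203, a processed transcript of 826 bases, held 78.5% of its TPM, and its coding transcript was at 0.91 and 1.53. Gabarap was mainly on Gabarap-202 (71.3%), annotated as coding for 106 residues against 117, and its principal form had a TPM of 7.74 and 21.7. Map1lc3b kept 83.5% and 72.6% of its TPM on coding transcripts, and Gabarapl1 100% in both pools. Counting only protein-coding transcripts, an alternative added after the values were seen, Gabarapl2 held 53.0% ± 7.17 of the family, Gabarap 27.0% ± 7.97, Map1lc3b 10.6% ± 0.0601, Gabarapl1 9.05% ± 0.958 and Map1lc3a 0.289% ± 0.0996. Most of this Gabarap share was Gabarap-202 (TPM of 81.3 and 117). In principal forms Gabarap (7.74 and 21.7) lay below Map1lc3b (33.0 and 41.5) and Gabarapl1 (40.5 and 35.6) in both pools. Gabarapl2 therefore remained the highest of the 5 under TPM, counts (65.8% ± 7.81) and coding TPM, and of the pair of LC3 genes Map1lc3b held 65.5% ± 4.55, 86.8% ± 0.891 and 97.4% ± 0.874.

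The same question was put to every member. Of 30 detected members, 9 (Atg2a, Atg3, Becn1, Bnip3l, Gabarapl2, Map1lc3a, Pik3c3, Rb1cc1 and Wdfy3) had under 50% of their TPM on protein-coding transcripts in both pools, against 14.3% of protein-coding genes detected in both (932 of 6506). By expected counts it was 5 of 30 (Atg2a, Atg3, Becn1, Bnip3l and Map1lc3a), against 10.9% (706 of 6506). Wdfy3 was among the 9 by TPM because its dominant transcript was not found in GENCODE M21. Transcripts of any gene not found there were counted as not coding, and their true class is not known here. Among the 14 members that reached a TPM of 5 in both pools, the dominant transcript was not a coding one in 4 (Atg2a, Bnip3l, Gabarapl2 and Map1lc3a), against 14.7% of such genes (435 of 2952). By counts in place of TPM it was 3 of 14, without Gabarapl2, against 10.6%. No test was made of these shares. The dominant transcript was the same in both pools in 30 of 30 detected members and in 89.9% of all detected protein-coding genes. It was the principal coding isoform in 16 of the 30, another coding transcript in 5, a transcript not classed as coding in 8 and, for Wdfy3, one that could not be matched in GENCODE M21.

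The classes differ in what they hold. Becn1-201 is classed as a target of nonsense-mediated decay, and 99.8% of its bases lie in exons of coding transcripts. Rb1cc1-205 has 99.2%, Pik3c3-204 97.7%, Bnip3l-205 95.9%, Map1lc3a-203 91.6% and Gabarapl2-203 87.7% of their bases in such exons. Only 4 bases of Becn1-201, 13 of Rb1cc1-205 and 73 of Pik3c3-204 lie outside them. The split of these genes between coding and other transcripts is an estimate whose accuracy was not tested. Atg3-202 has 47.3% and Atg2a-202 has 38.8%, so these last carry the most sequence that no coding transcript holds. The edges where retained sequence meets a coding exon are shown for the 3 retained-intron transcripts that held most of their gene's TPM, with 30 bases on each side, from the plus strand of mm10; capitals mark sequence outside the exons of coding transcripts.
Atg2a-202 (chr19:6251834-6251893): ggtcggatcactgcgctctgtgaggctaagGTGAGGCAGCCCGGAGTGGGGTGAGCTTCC
Atg3-202 (chr16:45166950-45167009): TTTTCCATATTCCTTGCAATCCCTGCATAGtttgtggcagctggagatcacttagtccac
Gabarapl2-203 (chr8:111941130-111941189): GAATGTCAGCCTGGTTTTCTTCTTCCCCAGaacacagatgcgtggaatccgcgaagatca
In Atg2a-202 the capitals start with GT, the usual first letters of an intron, and in the other two they end with AG, the usual last letters. Atg2a-202 has 706 bases in 2 exons, with 432 outside coding exons. Whether reads crossed these edges was not analysed here, since the tables hold estimated counts per transcript and no read positions.

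**Figure D2:**
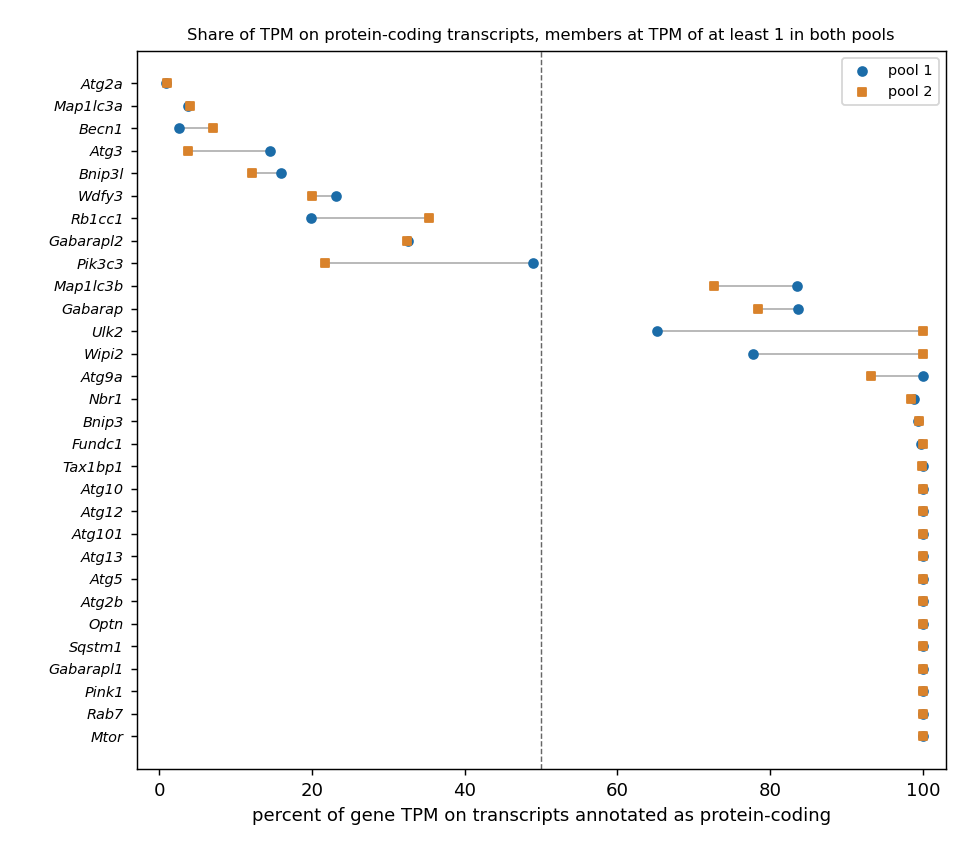
Percent of each gene's TPM on transcripts annotated as protein-coding, for the 30 members detected in both pools, with a circle for pool 1 and a square for pool 2; the dashed line marks 50%. Of these, 9 lie left of the line in both pools, from Atg2a at 0.805% and 1.01% to Pik3c3 at 49.0% and 21.7%, and most of the others lie near 100%.

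Initiation genes were low, with Ulk2 above Ulk1. The ULK kinases receive the nutrient signal and start autophagy together with ATG13, ATG101 and the scaffold RB1CC1 (also called FIP200). By gene TPM Rb1cc1 was the highest of the 5, at 9.25 in pool 1 and 4.22 in pool 2. Its coding transcripts were assigned 1.83 and 1.49, below Atg101 in pool 1 and above it in pool 2. Atg101 had 3.03 and 1.04, from 139 and 41 counts. Ulk2 had 2.30 and 1.41, Atg13 had 1.25 and 1.30, and Ulk1 had 0.39 and 0.37 from 81 and 67 counts. Ulk2 lay above Ulk1 in both pools and held 82.4% ± 4.45 of the summed TPM of both kinases, and 79.3% ± 0.107 with coding transcripts only.

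Of the nucleation genes, which encode the lipid kinase VPS34 (Pik3c3), its partners and its activator AMBRA1, only Becn1 and Pik3c3 were detected in both pools. Becn1, the scaffold of the complex, had 6.71 and 4.67, of which coding transcripts were assigned 0.17 and 0.33. Becn1-201, which was assigned 89.7%, has 4 of its 2123 bases outside exons of coding transcripts. How well the estimate separates them was not tested. Pik3c3 had 2.63 and 4.79, with 1.29 and 1.04 on coding transcripts. Pik3r4, the regulatory kinase-like subunit, had 0.79 and 1.27. The subunits that set the complex's place were under 1 in both pools: Uvrag, of the endosomal form, had 0.79 and 0.62, and Atg14, of the autophagosomal form, had 0.51 and 0.36. Ambra1 had 0.41 and 0.31.

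Atg2a had the highest gene TPM of the membrane supply genes, almost all of it on a retained-intron transcript. The ATG2 proteins move lipid from the endoplasmic reticulum into the growing membrane. Atg2a had a TPM of 29.8 and 14.9, from 782 and 341 counts, and its retained-intron transcript held 99.1% of it, which left 0.24 and 0.15 on coding transcripts. Atg2b had 3.26 and 2.77, all on coding transcripts, from 1334 and 977 counts. Atg2a thus held 87.2% ± 4.13 of the pair by gene TPM, 31.4% ± 7.84 by counts and 6.0% ± 1.22 by coding TPM, so the order of the paralogs turned with the measure. Exons of Atg2b share 383 bases with Gskip on the opposite strand (1463 and 1301 counts), and strand use in the counting is not stated in the sources used here, so their reads may not be separable. Atg9a, a lipid scramblase, had 1.00 and 3.84, and the PI3P-binding Wipi2 had 1.94 and 1.12, while Wipi1 had 0.69 and 1.07. The other paralogs Wdr45 and Wdr45b, which bind the same lipid, had 2.49 and 3.35, and 4.33 and 5.97, so Wdr45b was the highest of the 4 WIPI genes in both pools, with 48.8% ± 4.28 of their TPM. Atg9b, the other scramblase gene, had 0.04 and 0.

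Conjugation genes were low throughout. Atg12, the ubiquitin-like partner of ATG5, had a TPM of 5.5 and 4.43. Atg3, the enzyme that joins ATG8 proteins to lipid, had 4.83 and 5.08, of which coding transcripts held 0.70 and 0.19. Atg10, which joins ATG12 to ATG5, had 4.22 and 2.69, and Atg5 itself had 2.04 and 2.17. Atg16l1, which brings that pair to the membrane, had 0.85 and 1.20. Atg7, which activates both ubiquitin-like proteins, had 0.28 and 0.41, from 41 and 53 counts. That was the lowest TPM of the conjugation genes, but by the deposited posterior mean TPM its mean was 1.05, above Atg4a (0.775) and Atg4d (0.99). Of the 4 ATG4 proteases none was at a TPM of 1 in both pools: Atg4c had 0.64 and 2.10, Atg4d 0.57 and 1.40, Atg4b 0.46 and 0.88, and Atg4a 0.76 and 0.48. With 35 to 198 counts each, their order changed from pool to pool, and Atg4c held 34.8% ± 11.9 of their sum.

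**Figure D3:**
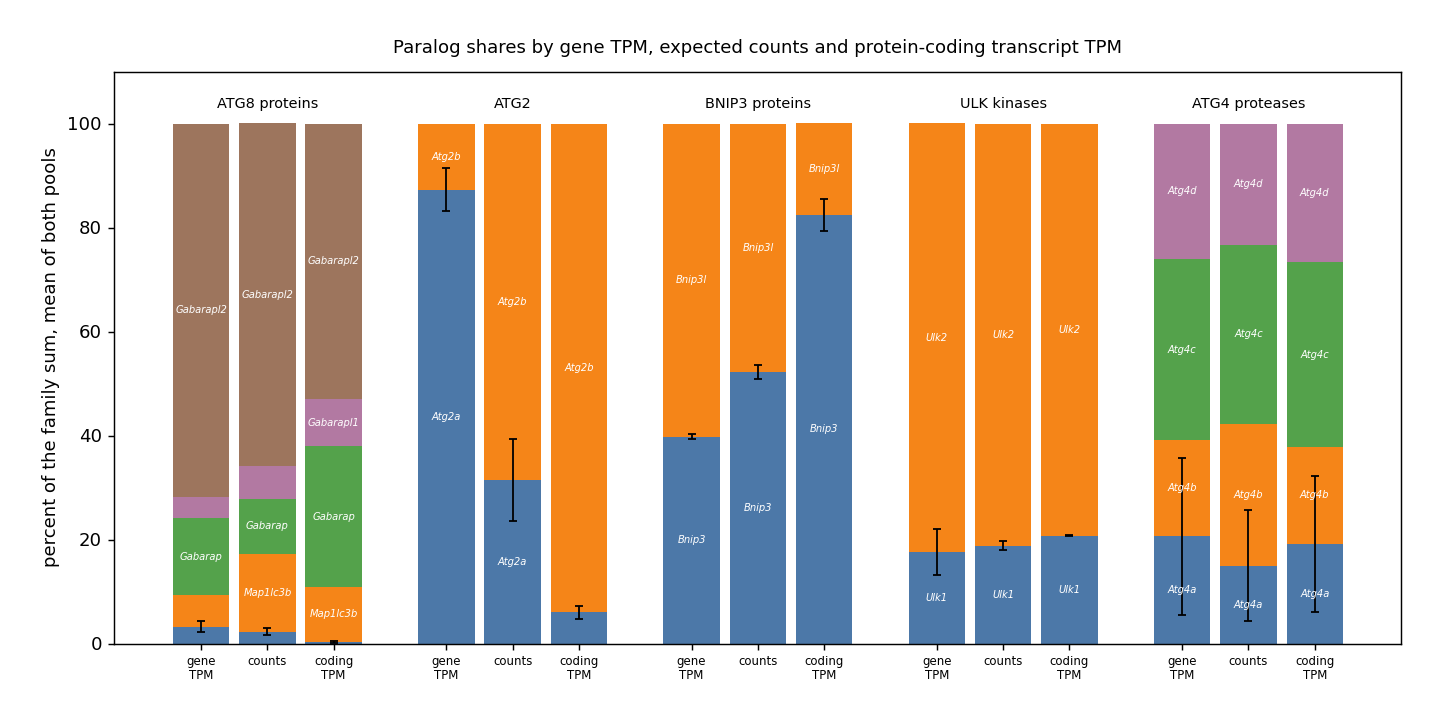
Percent of each family's sum held by each paralog, as the mean of both pools, by gene TPM, by expected counts and by TPM of protein-coding transcripts; black bars are the SD between pools for the lowest segment (n = 2). Atg2a falls from 87.2% by gene TPM to 6.0% by coding TPM, Bnip3l from 60.2% to 17.5%, and Gabarapl2 stays the largest ATG8 segment.

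All 5 cargo receptors were detected in both pools. Sqstm1, whose protein p62 gathers ubiquitin-tagged cargo, had a TPM of 58.5 and 57.7. Tax1bp1 had 22.6 and 29.4, Nbr1, which works with p62, had 12.5 and 14.1, the large scaffold Wdfy3 had 4.70 and 8.05, and Optn, which binds ubiquitin on mitochondria, had 2.78 and 1.60. Sqstm1 lay above Nbr1 in both pools, with 81.4% ± 1.46 of their summed TPM and 56.5% ± 3.6 of their counts. Its dominant transcript, Sqstm1-204, is annotated as coding with an incomplete start (109 codons against 442 residues in the principal form), and that principal form had a TPM of 2.99 and 3.25. Likewise Nbr1-217, the dominant Nbr1 transcript (86.4%), lacks its start, with 711 codons against 988. Wdfy3 had 73.8% of its TPM on a transcript of 836 bases, while coding transcripts held 85.5% and 82.8% of its counts.

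By summed gene TPM the mitophagy genes (120.2 and 157) came next to the ATG8 family, above the receptors (101 and 111). On coding transcripts alone the order turned, with 76.2 and 94.2 for mitophagy genes and 97.3 and 104 for receptors. Most of that receptor sum was Sqstm1-204 (55.0 and 54.4), which is annotated with an incomplete start. The principal form of Sqstm1 had 2.99 and 3.25, so the turned order depends on counting Sqstm1-204 as coding. Bnip3l (also called NIX) and Bnip3, which sit on the outer mitochondrial membrane and bind ATG8 proteins, had TPM of 51.9 and 71.0, and of 33.8 and 47.6. Fundc1, another outer membrane receptor, had 18.8 and 29.3. Pink1, the kinase that marks damaged mitochondria, had 15.7 and 8.89. Most of the Bnip3l level lay on Bnip3l-205, a processed transcript of 789 bases, and its coding transcripts had 8.23 and 8.58, whereas Bnip3 had 33.6 and 47.4 on coding transcripts. The order of the pair therefore turned: Bnip3l held 60.2% ± 0.495 by TPM, 47.8% ± 1.38 by counts and 17.5% ± 3.07 by coding TPM. Bnip3l-ps, a pseudogene with 99.4% identity, had 38.3 and 219 counts of its own. Pink1 was nearly all on Pink1-202 (95.1%), a coding transcript of 168 codons against 580 residues.

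Of the 3 control and fusion genes, Rab7, the GTPase of late endosomes and lysosomes, had 59.98 and 67.5. Mtor, the kinase that holds autophagy in check, had 2.94 and 2.79. Tfeb, a transcription factor for lysosomal genes, had 0.02 and 0.09 from 1 and 5 counts, too few to test. Its relatives were also low: Tfe3 had 0.68 and 0.74, Mitf 0.64 and 0.12, and Tfec was listed at 0 in both pools.

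Outside the 43, the 53 other genes of the pathway that were found had a median log2(TPM + 1) of 1.36 ± 0.15 (SD, n = 2), with 30 detected in both pools and 18 under 1 in both. All 6 receptors for turnover of the endoplasmic reticulum were detected, led by Sec62 at a TPM of 464 and 440 (mean 452 ± 17.0, SD, n = 2) and Rtn3 at 12.7 and 21.95. Among other mitophagy factors 7 of 8 were detected, led by Nipsnap2 at 100.3 and 126 and Fkbp8 at 11.9 and 13.7. The mTORC1 list had 2 of 7, with the activating GTPase Rheb at 75.0 and 65.4 and its brake Tsc2 at 1.38 and 1.46. The scaffold Rptor was at 0.62 and 0.66, Akt1s1 at 0.28 and 0.26, Deptor at 0.14 and 0.18, and Tsc1 at 0.44 and 0.96. AMPK, the energy sensor that activates ULK1, had 3 of 6 subunits detected, led by Prkab2 at 5.59 and 3.69 and Prkag2 at 3.41 and 3.09. Its catalytic subunits Prkaa1 (0.37 and 0.38) and Prkaa2 (0.15 and 0.66) were under 1, as was Prkab1 (0.19 and 0.26). In the list grouped with VPS34, whose genes are not all parts of its complex, 4 of 6 were detected. They were led by Vmp1 at 35.0 and 47.2 and Bcl2l1 at 4.56 and 9.22, while Rubcn had 0.36 and 0.82 and Bcl2 0.67 and 0.35. Of the fusion genes 5 of 12 were detected in both, led by Vamp8 (13.0 and 20.3) and Vps16 (6.95 and 13.1). The fusion genes Snap29 (0.33 and 0.44), Epg5 (0.29 and 0.11) and Plekhm1 (0.03 and 0.04) were under 1. In the list of ATG and WIPI paralogs 3 of 5 were detected, led by Wdr45b and Wdr45, with Atg16l2 at 0.89 and 0.56. The remaining gene under 1 in both pools was Bcl2l13, at 0.20 and 0.38.

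**Figure D4:**
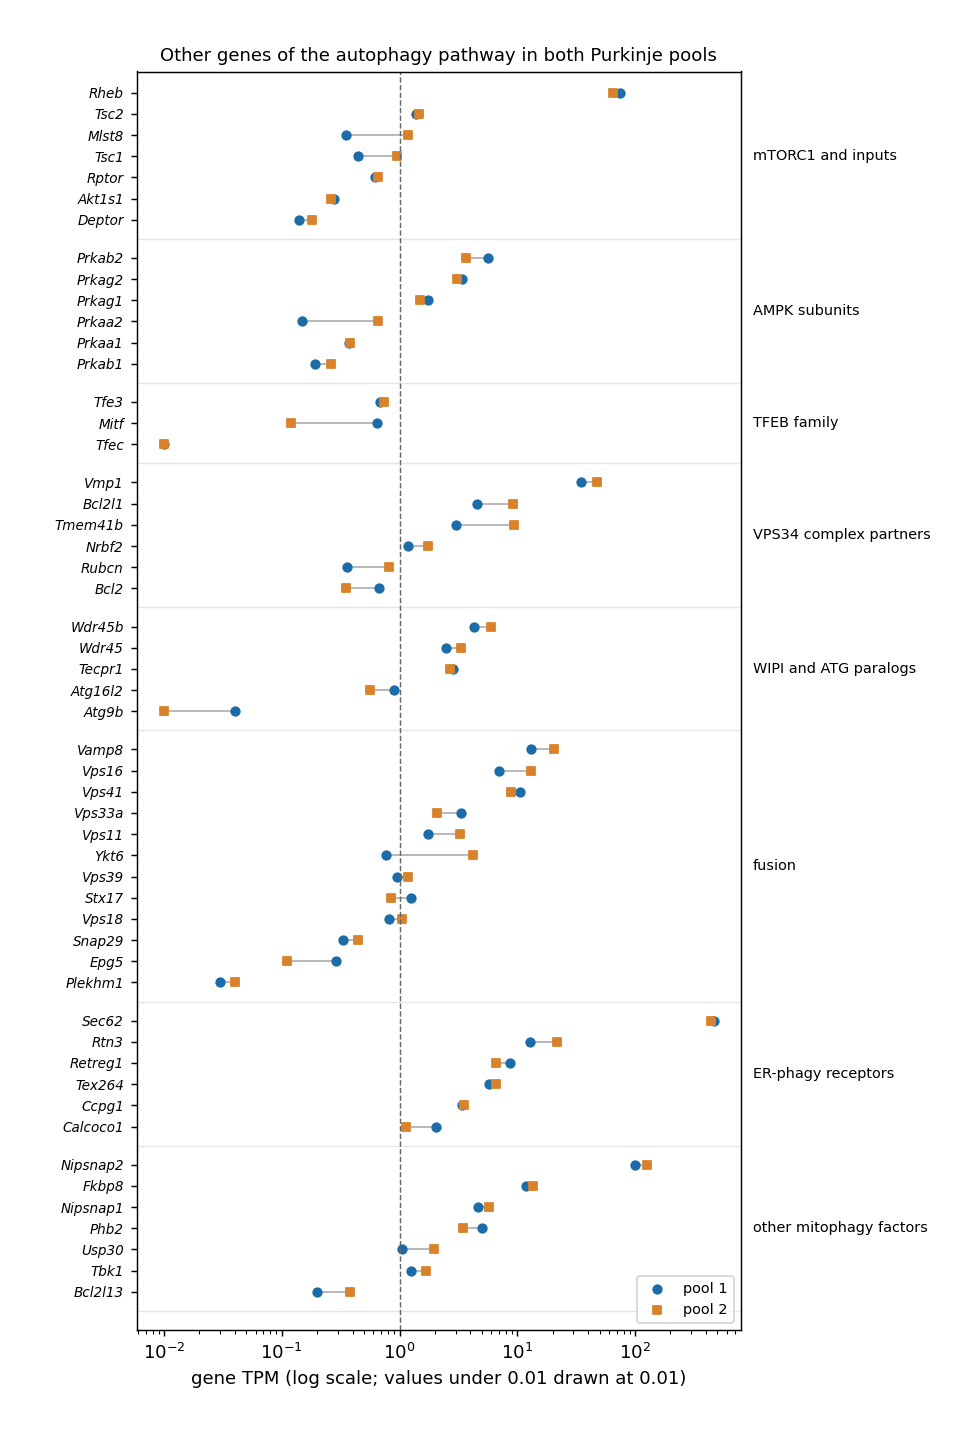
Gene TPM of other genes of the autophagy pathway, those reported here, on a log axis, by list, drawn as for the members; genes under 0.01 are drawn at 0.01. Sec62 (464 and 440) and Nipsnap2 (100.3 and 126) are the farthest right, and Tfec, at 0 in both pools, is drawn at the left edge.

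The pools were then compared with each other, gene by gene, with a two-sided exact binomial test on expected counts scaled by the TMM method and Benjamini-Hochberg adjustment over all genes tested. The test compares these libraries and not conditions. Of the 43 members 42 had at least 10 counts, and 34 of them differed at an adjusted p under 0.05, against 65.8% of all genes tested (9536 of 14495). Higher in pool 2 were 14 of the 42, against 33.3%, and higher in pool 1 were 20, against 32.5%. A difference beyond 2-fold was found for 8, against 29.2%. These shares over all genes are not matched for level. At a mean TPM from 1 to 10, 73.7% of members were within 2-fold, against 82.1% of protein-coding genes. From 10 to 100 it was 83.3% against 93.6%, and from 100 to 1000 it was 2 of 2 members against 96.4%. The median log2 ratio (pool 2 over pool 1) of the 35 members detected in at least 1 pool was -0.19, against 0.03 for all genes so detected. Of the members' calls, 41.2% were higher in pool 2, against 50.7% of the calls over all genes. Scaling by total counts, which moved the median of all detected genes to 0.23, gave 51.5% against 64.2%, and scaling by spike-in totals, which moved it to -0.74, gave 5.41% against 14.3%.

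By step, the direction was mixed. In initiation all 3 members that differed were higher in pool 1, and in nucleation 4 were higher in pool 1 and 2 in pool 2. Membrane supply had 3 and 1, conjugation 3 and 3, the ATG8 family 2 and 3, receptors 2 and 2, mitophagy 1 and 3, and control and fusion 2 and 0. Of the 34 members that differed, 33 kept their direction under total counts (Rab7 did not), 34 under DESeq2 size factors and 23 under spike-in totals.

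The members with more than a 2-fold difference were of low or middling level. Atg101 had the widest gap among those higher in pool 1, with 139 and 41 counts (log2 ratio -1.81, adjusted p = 6.7e-14 in the exact binomial test). Atg2a had a log2 ratio of -1.26, Pink1 of -1.09, Optn of -1.08 and Rb1cc1 of -1.06. Higher in pool 2 were Atg4c, with 70 and 198 counts (log2 ratio 1.43, adjusted p = 2.03e-13 in the exact binomial test), Atg4d (1.03) and Atg9a, with 149 and 470 counts (1.60). Atg9a shares 99.9% of 768 bases with Gm29253, a processed transcript in the same place that had 104 and 0 counts. With both summed the ratio was 0.83, a 1.78-fold difference, so the Atg9a difference beyond 2-fold ended. Within the ATG8 family, Gabarap was higher in pool 2 (log2 ratio 0.54) and Gabarapl2 in pool 1 (-0.52), with adjusted p = 4.79e-58 for Gabarap in the exact binomial test; under spike-in totals Gabarap turned to -0.23. Of the Bergmann glia markers 9 of 11 were higher in pool 2 in the same test, of the Purkinje markers 9 of 10 were higher in pool 1 (median log2 ratio -0.28), and 4 of 5 red blood cell markers were higher in pool 1. Their part in these differences was not tested.

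**Figure D5:**
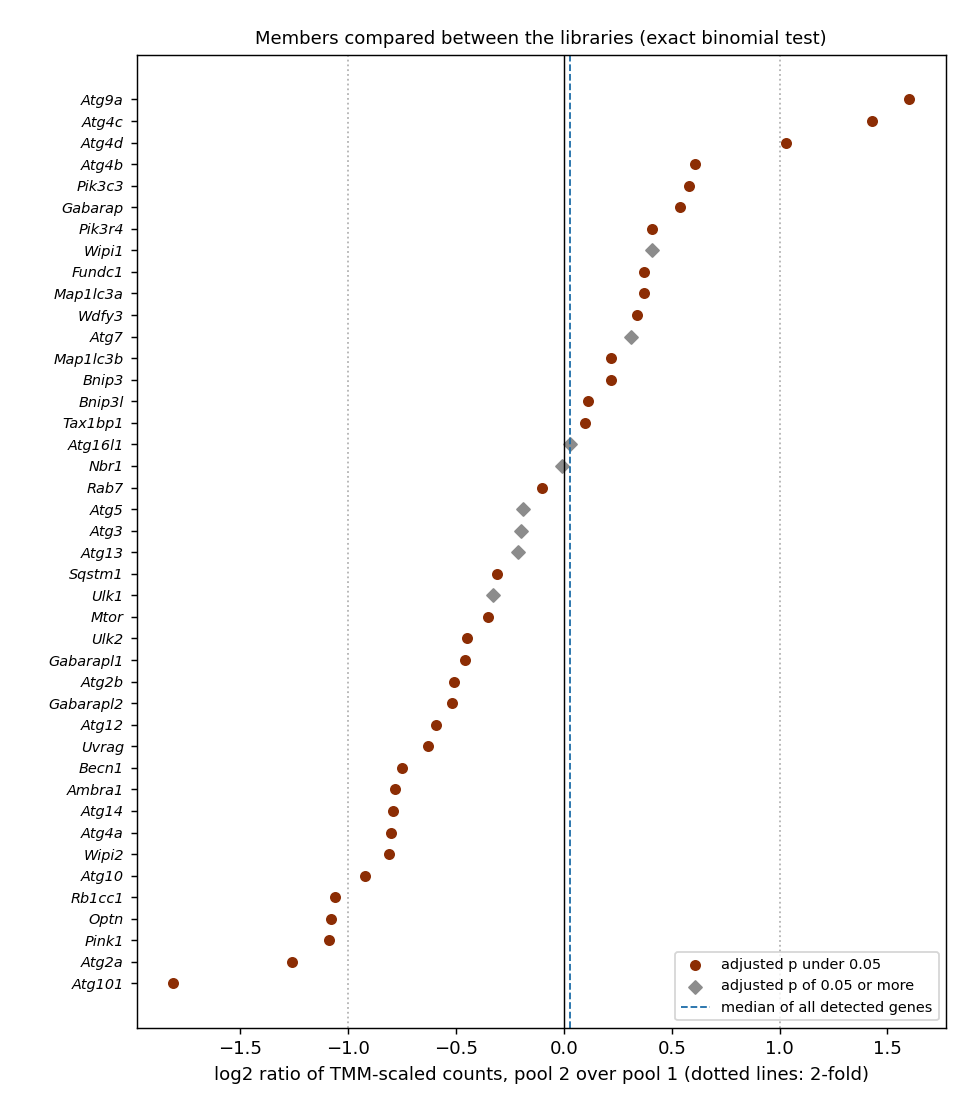
The log2 ratio of TMM-scaled counts, pool 2 over pool 1, for the 42 tested members, with circles for an adjusted p under 0.05 and diamonds for the others; dotted lines mark 2-fold and the dashed line the median of all detected genes. Atg9a (1.60) and Atg101 (-1.81) are the ends of the range, and 8 members lie outside the dotted lines.

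Spread between pools was judged against level. Of 19 members with a mean TPM from 1 to 10, 14 were within 2-fold between the pools, against 82.1% of protein-coding genes at that level. From 10 to 100 it was 10 of 12, against 93.6%, and from 100 to 1000 it was 2 of 2, against 96.4%. The limits of gene identity also bear on the levels: 7 members have a near copy (for Atg9a and Wdfy3 a transcript overlapping the gene itself) and 16 share exon bases with another gene, so part of their reads could be split or shared.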

How the data were processed

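The analysis started from 2 libraries, each with a deposited gene table and transcript table made on mm10 with GENCODE M4, as a deposited text file states. The aligner and quantifier, not given in the sources used here, are left unnamed. By their headers, the tables deposited by the authors hold expected counts, TPM, FPKM and, per transcript, the percent of the gene's TPM. TPM and expected counts were used throughout, and FPKM and the deposited posterior mean TPM only as alternatives. Depth was 31503819 and 28709397 expected counts. Rows with numeric identifiers name no gene, held 0.000412% and 0.000194% of counts, and were left out.

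Symbols, gene and transcript types and sequences were taken from GENCODE M21, also on mm10. Of 84 member transcripts holding at least 2 percent of their gene's TPM, 76 had the deposited length in M21 and 1 was not found in it. Of 54 other pathway genes 53 were found. Expected counts were rounded for tests. Genes with at least 10 counts in total were compared between the libraries by a two-sided exact binomial test given TMM totals (edgeR 4.0.16), with Benjamini-Hochberg adjustment, a threshold of 0.05 and 0.5 counts added in log ratios. DESeq2 1.42.0 gave other size factors. Near copies were found with BLAST+ 2.17.0 (95% identity, 200 bases). PCR reads without molecular identifiers are not independent molecules, yet the test treats each expected count as an independent draw. It covers at most counting error, and even for that its p-values can be too small and its calls too many. A mouse C57BL/6 reference was used for a hybrid; its effect was not tested.

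Every member was named. Of the other pathway genes, the text names the 2 highest detected of each list and any under a TPM of 1 in both pools, and of each marker list the 2 highest. Gfap, Aif1, Gskip and the near copies were named after their values were seen. Some items of the lists are not reported here. The members and lists were chosen with earlier results of these data known. The coding-transcript alternative was added after the values were seen.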

Additional observations from a re-analysis of the deposited data

How the results depend on the processing

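Detection in both pools gave 30 members at a TPM of at least 1. It gave 42 at a TPM of at least 0.1, 14 at 5, 36 after rescaling TPM over nuclear protein-coding genes, 32 with FPKM or posterior mean TPM, 26 on protein-coding transcripts alone, and 30 to 35 with 1 pool left out. The median of log2(TPM + 1) over the members, 1.97, was 1.59 with a pseudocount of 0.1, 2.62 over members at a mean TPM of at least 1, 2.22 with FPKM, 2.67 with rescaled TPM and 1.33 on protein-coding transcripts alone; with 1 pool left out it ran from 1.92 to 2.01. Of the 34 members that differed between the libraries, 8 were beyond 2-fold. The median log2 ratio of the members, -0.19, reversed to 0.01 under total counts and to 0.06 as the log2 ratio of TPM + 1, and was -0.96 under spike-in totals, where all genes moved to -0.74; the cause was not tested. The Gabarapl2 share of the ATG8 family, 71.8%, was 53.0% on protein-coding transcripts and 66.8% to 76.9% with 1 pool left out. The same dominant transcript was found in 30 of 30 members at a TPM of at least 1, against 14 of 14 at 5. Single-gene TPM moved by more than the SD between pools for 10 of 43 members on protein-coding transcripts, 6 of 43 with posterior means (among them Atg7 from 0.345 to 1.05, Atg4b from 0.67 to 1.41 and Tfeb from 0.055 to 1.0) and 41 of 43 after rescaling. Rescaling multiplied the TPM of every gene by 1.935 in pool 1 and 1.769 in pool 2. The changes it made in levels, detection and the median follow from these factors and say nothing particular to the members. No paired analysis was possible because the pools form 1 group. Genes under about 100 counts, such as Ulk1, Atg7 and Atg4a, are limited by depth.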
